A study of Mus musculus with 2 samples.

Results

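Interferon-stimulated genes are the genes that cells switch on after they sense an interferon. The 35 genes described here were taken by symbol from a list of typical mouse members, and all 35 were found among the 56980 genes of the count tables. They were followed in every cell class of 2 single-cell libraries and as a count of members seen per cell.

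The libraries came from mouse small intestine, freed of mesentery and Peyer's patches, digested to single cells and prepared with the droplet chemistry of 10x Genomics. One library is labelled control and the other model. The series title speaks of simulated microgravity, radiation and the compound CB001, but the labels do not say what the model animal received, nor the strain, age, number of animals or stretch of gut. No library labelled with the compound was analysed here. With 1 library per group no difference has a replicate check, and the intervals given are 95% intervals of counting error only.

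Type I and type III interferons signal through receptor-bound kinases to transcription factors that bind the interferon-stimulated response element (ISRE) in the promoters of their targets. Interferon gamma, made mainly by T and NK cells, leads to binding at the gamma-activated sequence (GAS). The products block virus entry, copying and release, and in the gut the epithelium is known to answer type III interferon in particular.

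The promoters of the members carry these letters more often than promoters at large. The RefSeq promoter table (GRCm38.p6) held 25 of the 35 members and 27025 genes in all. The letters TTTCNNTTTC, a core of the ISRE, were searched on both strands of the 250 bases before each start, counting overlapping matches. They occurred in 14 of the 25 members (56.0%) and in 3.46% of all genes. The letters TTCNNNGAA of the GAS occurred in 6 of the 25 members (24.0%) and in 8.13% of all genes. A match is a description of the letters and was not measured as a bound site. Oas2, Mx1, Mx2, Usp18, Zbp1, Rtp4, Parp14, Ifi27l2a, Gbp4 and Gbp6 had no entry in that table.

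The stretches below belong to members on which the later results turn. Each runs 5′ to 3′ on the gene's own strand, with the matched letters in capitals (on the other strand the ISRE reads GAAANNGAAA). Isg15 lies at chr4:156200855-156200916, minus strand, Ifit1 at chr19:34640765-34640833, plus strand, and Rsad2 at chr12:26456543-26456592, minus strand. Bst2 lies at chr8:71537567-71537628, minus strand, Trim30a at chr7:104465200-104465249, minus strand, and Igtp at chr11:58199491-58199551, plus strand. Gbp2 lies at chr3:142620584-142620633, plus strand, Gbp7 at chr3:142530210-142530312, plus strand, and Isg20 at chr7:78913331-78913379, plus strand. These coordinates belong to the RefSeq table's build, not to GRCm39, which the submitters' processing notes name.
Isg15: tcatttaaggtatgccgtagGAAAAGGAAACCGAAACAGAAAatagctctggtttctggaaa
Ifit1: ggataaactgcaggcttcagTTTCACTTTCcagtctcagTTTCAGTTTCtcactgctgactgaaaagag
Rsad2: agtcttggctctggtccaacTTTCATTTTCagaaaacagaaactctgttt
Bst2: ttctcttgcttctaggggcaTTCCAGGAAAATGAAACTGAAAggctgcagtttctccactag
Trim30a: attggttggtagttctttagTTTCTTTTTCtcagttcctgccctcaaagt
Igtp: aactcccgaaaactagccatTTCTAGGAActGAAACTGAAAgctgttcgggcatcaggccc
Gbp2: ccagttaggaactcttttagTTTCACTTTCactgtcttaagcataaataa
Gbp7: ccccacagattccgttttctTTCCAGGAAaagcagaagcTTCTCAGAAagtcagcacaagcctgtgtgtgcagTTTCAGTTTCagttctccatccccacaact
Isg20: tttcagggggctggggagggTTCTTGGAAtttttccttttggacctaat
Isg15, the ubiquitin-like protein ISG15, held 3 overlapping ISRE matches in 1 run. Ifit1 held 2 ISRE matches, whereas Isg20 held a GAS match and no ISRE match. Bst2, Igtp and Gbp7 held matches to both motifs, and in Bst2 they overlap.

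The kept cells, 7329 control and 7913 model, held medians of 3636 and 3761 unique molecular identifiers (UMIs, tags of single captured RNA molecules). Mitochondrial UMIs took a median of 10.8% per control cell and 5.38% per model cell. The libraries shared 28 barcodes, 12 of them among kept cells. Cells were clustered without the members and related interferon genes, so that their levels did not shape the clusters. Classes carry the name of the cell type whose markers they showed, by transcripts alone, so each name stands for cells like that type. Among the unnamed clusters, 1 with low RNA held 1198 control and 34 model cells and is not compared. Cluster 10, low in RNA and with T cell markers, held 156 control and 129 model cells. Cluster 11 held 219 and 659. Their medians were 964 and 876.5 UMIs per cell, and their members are given further on.

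Across cell classes the members were highest in macrophages, plasmacytoid dendritic cells and endothelial cells, and lowest in crypt cells. The 35 members together made up 24.3 of 10000 UMIs in control macrophages (23.3 to 25.3) and 30.2 in model macrophages (29.1 to 31.4). In plasmacytoid dendritic cells they made up 24.5 (22.8 to 26.3) and 44.8 (40.8 to 49.1), from 47 control and 26 model cells. In endothelial cells they made up 23.5 (22.0 to 25.03) and 22.8 (20.9 to 24.9). Crypt stem or transit-amplifying cells had 2.31 (2.23 to 2.39) and 2.19 (2.12 to 2.26). The order of these classes thus did not hang on 1 library, although the plasmacytoid value did differ between them.

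**Figure D1:**
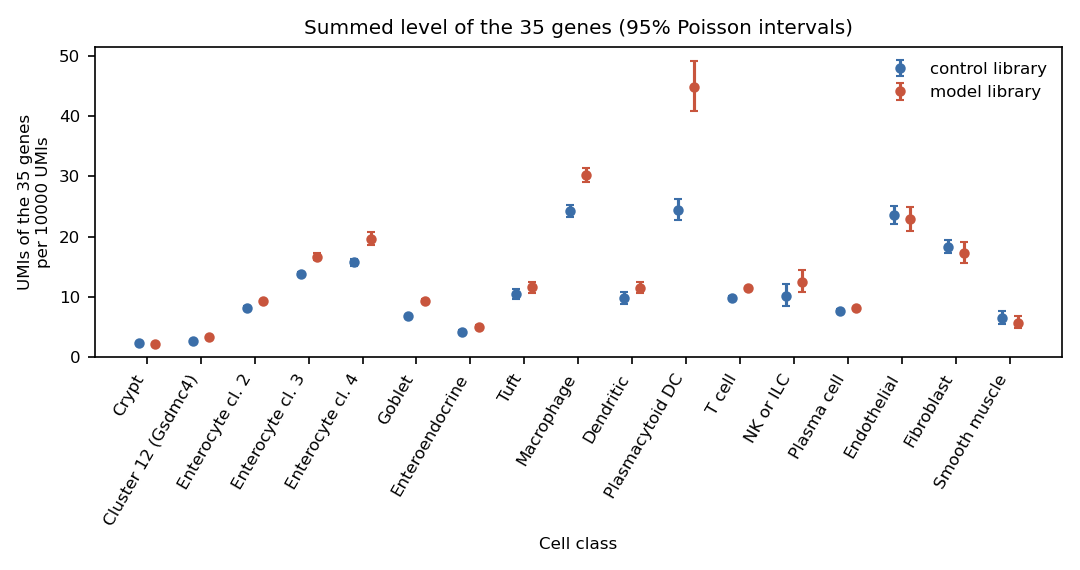
UMIs of the 35 interferon-stimulated genes per 10000 UMIs (y axis) in 17 classes or clusters (x axis), for the control and the model library, with 95% Poisson intervals of counting error. Crypt cells lie lowest at 2.31 and 2.19, the 3 enterocyte clusters step up from 8.17 to 15.7 in the control library, and model plasmacytoid dendritic cells reach 44.8.

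Single members had different homes, as the heatmap of levels by class shows. Of 14 classes, endothelial cells held the highest pooled level for 10 members, macrophages for 8, enterocytes and tuft cells for 4 each, plasmacytoid dendritic cells for 3 and NK or innate lymphoid cells for 2. Enteroendocrine cells, fibroblasts, goblet cells and plasma cells held 1 each. The highest class was the same in both libraries for 26 of 35 members, and for 15 its counting interval stood apart from that of the next class. Levels are given as CPM, the UMIs of a gene per 1000000 UMIs of the class, and are compared between classes, not between genes.

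Bst2, the tetherin that holds budding virus at the cell surface, reached 1737 control and 3321 model CPM in plasmacytoid dendritic cells, against 398 pooled in endothelial cells, the next class. It made up most of the plasmacytoid sum given above. Ifi27l2a reached 923 and 738 CPM in fibroblasts, with macrophages next at 304 pooled. Isg20, an RNA-degrading exonuclease, reached 77.1 and 79.1 CPM in plasma cells and was lowest in enterocytes at 0.538 pooled. For each of these 3 members the highest class was the same in both libraries, with an interval apart from that of the next class.

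Among epithelial classes, tuft cells, which are chemosensory, enterocytes, goblet cells and enteroendocrine cells each held the peak of some members. Oas2, an oligoadenylate synthetase that activates RNase L, stood at 53.0 and 74.0 CPM in tuft cells, with macrophages next at 26.4 pooled. Irf7, the transcription factor that amplifies interferon production, stood at 133 and 137 CPM there, with enterocytes next at 80.04 pooled. Oasl1 was highest in goblet cells at 137 and 149.95 CPM, with enterocytes next at 102 pooled. Usp18 was highest in enteroendocrine cells at 28.6 pooled, with dendritic cells next at 25.3 and highest in the model library.

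Of the guanylate-binding proteins, GTPases that attack vacuoles of intracellular microbes, 3 of the 4 members were highest in macrophages or endothelium. Gbp7 had 296 and 328 CPM in macrophages, and Gbp2 had 186 and 249 CPM in endothelial cells. Gbp4 was highest in endothelial cells as well, at 152 and 163 CPM, with macrophages next at 129 pooled. The fourth, Gbp6, was highest in NK or innate lymphoid cells at 24.5 and 31.8 CPM, from 37 and 63 cells, with fibroblasts next at 14.3 pooled. For Gbp4 and Gbp6 the counting intervals of the highest and the next class overlapped. In enterocytes Gbp2 had 0.994 and 0.840 CPM, from 11 UMIs in each library, and so was rarely seen in the absorptive epithelium.

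**Figure D2:**
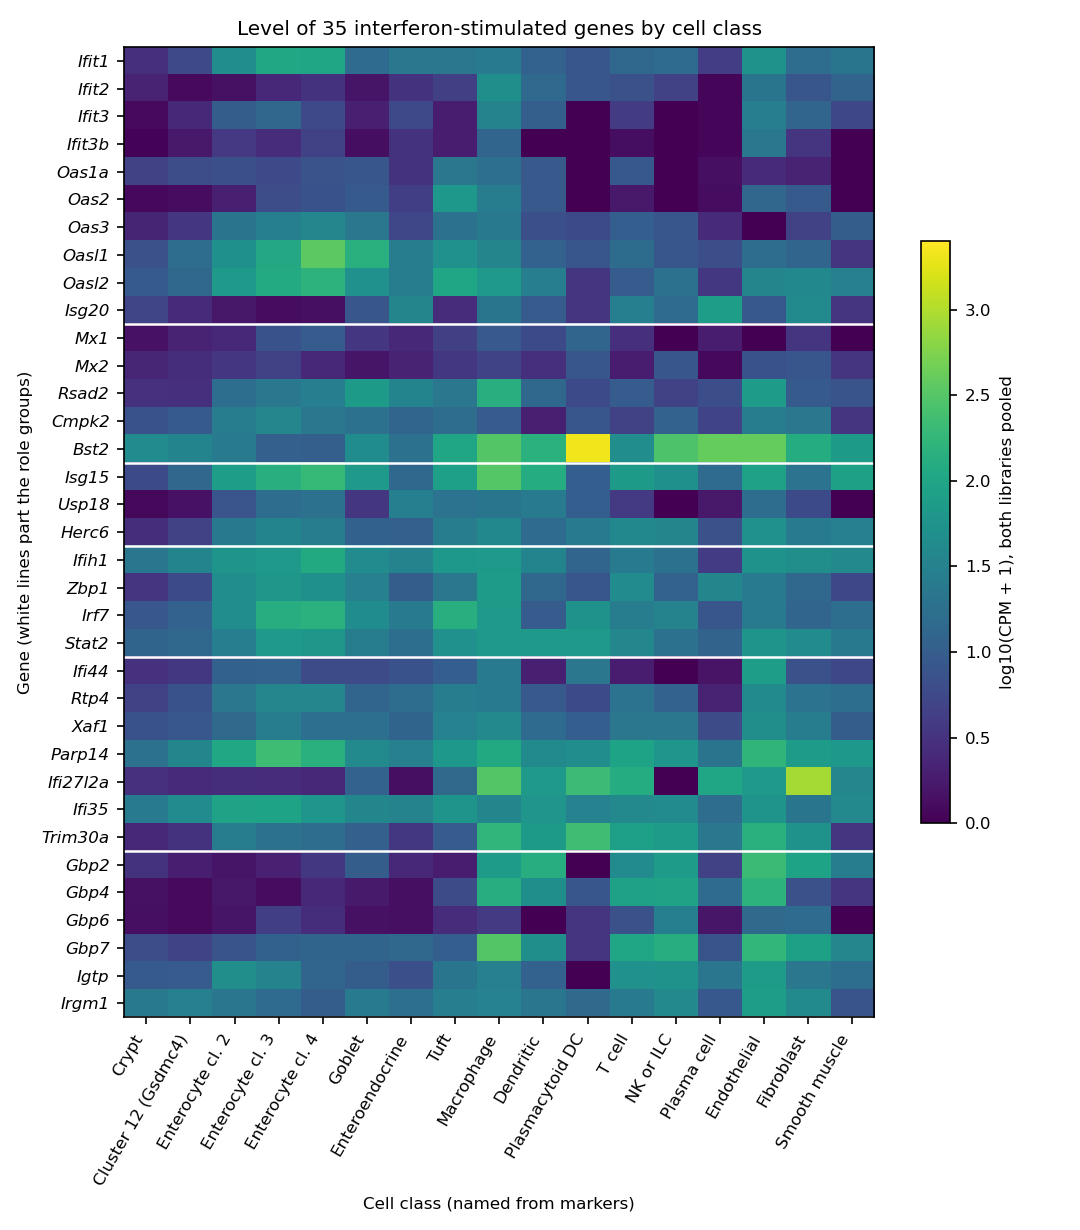
Pooled level of each of the 35 genes (rows, log10 of CPM + 1, colour) in 17 cell classes or clusters (columns), with white lines between the role groups. Rows are to be read across: Bst2 is brightest in plasmacytoid dendritic cells, Ifi27l2a in fibroblasts and Isg20 in plasma cells, and most rows are dark in crypt cells.

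Within the epithelium the members climbed from the crypt to the enterocytes of the villus. In the control library 25 of 34 measured members were at least 1.5-fold higher in enterocytes than in crypt cells with an interval excluding 1, where 20.8% of all genes were. In the model library 27 of 33 were, where 19.7% of all genes were. In both libraries alike it was 24 of the 33, and the median ratios were 6.55 (control) and 6.397 (model). Both classes of a library share its preparation, and depth per cell differs between them.

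Isg15 had 5.28 CPM in control crypt cells and 102 in control enterocytes (ratio 19.3, 15.2 to 24.9), and 4.53 and 114 in the model library (25.1, 19.99 to 32.04). Usp18, the protease that removes ISG15 from proteins, had 3 crypt and 124 enterocyte UMIs in the control library (0.223 and 11.2 CPM, ratio 50.2, 16.8 to 247). Its counts in the model library were 3 and 125 (ratio 54.1, 18.1 to 266). For the ISG15 system the villus value thus lay far above the crypt value in both libraries.

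The antiviral RNA binder Ifit1 had 2.53 CPM in crypt cells and 75.7 in enterocytes of the control library (ratio 29.9, 21.3 to 43.5), and 1.29 and 60.9 in the model library (47.0, 30.9 to 75.5). Zbp1, a sensor of Z-form nucleic acid that can start necroptosis, had ratios of 19.6 (14.1 to 28.0) and 27.2 (18.8 to 41.0). Against this direction, Isg20 was lower in enterocytes at ratios of 0.0868 (0.0273 to 0.212) and 0.182 (0.0751 to 0.384), and Bst2 at 0.315 (0.256 to 0.384) and 0.547 (0.481 to 0.622). Gbp2 and Irgm1 were lower in enterocytes in the control library alone, and their ratios in the model library were 1.43 (0.551 to 3.75) and 1.08 (0.917 to 1.27).

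The enterocyte clusters also differed in member level, but their place along the villus was not measured. Cluster 2, led by Aqp8, Cyp1a1, Gm3776, Reg3a and Gsta1, had 8.17 control and 9.37 model member UMIs per 10000. Cluster 3, led by Plb1, Tmigd1, Cubn, Fam151a and Nos2, had 13.8 and 16.7. Cluster 4, led by Clca4a, Ly6m, Ada, Gm16233 and Slc28a2, had 15.7 (15.2 to 16.2) and 19.7 (18.6 to 20.8). The order of the 3 clusters was the same in both libraries. Clusters 2, 3 and 4 also differed in median UMIs per cell (11483, 4176.5 and 3897) and median mitochondrial share (11.3%, 19.4% and 18.8%). The part of these in the order was not tested. Cluster 12, an unnamed epithelial-like cluster led by Gsdmc4, Gsdmc2, Alppl2, Gsdmc3 and Tex12, had 2.76 and 3.32, close to crypt cells.

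The comparison of the libraries asked whether members differed between control and model within a class. A member was counted as higher or lower when its ratio passed 1.5-fold with an interval excluding 1 and it had at least 20 UMIs over both libraries. Goblet cells, which secrete mucus, showed the broadest difference of the classes compared. Of 29 measured members, 12 were higher and 1 was lower in the model library, where 5.07% of all genes were higher and 5.46% lower. The median log2 ratio was 0.43 over the members (0.15 to 0.82) and −0.05 over all genes measured in goblet cells.

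In goblet cells 3 of 3 members of the ISG15 system were higher, of which Isg15 alone was also higher without the cells rich in enterocyte RNA described further on. Isg15 had 185 UMIs in 352 control cells and 418 in 338 model cells, which is 37.9 and 101 CPM (ratio 2.66, 2.23 to 3.18). Usp18 had 5 and 17 UMIs (ratio 4.002, 1.42 to 13.9). Herc6, the ligase that attaches ISG15 in mice, had 41 and 54 UMIs (8.40 and 13.0 CPM, ratio 1.55, 1.01 to 2.39), and its log2 ratio was −0.058 at 1000 UMIs per cell. Of the 3, Isg15 is thus the member with counts that fix its ratio well.

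Of the RNA-binding and RNA-degrading proteins 3 of 7 measured were higher in goblet cells. Ifit1 had 37 and 93 UMIs (7.58 and 22.4 CPM, ratio 2.96, 2.00 to 4.46). Oas2 had 22 and 51 (4.51 and 12.3 CPM, 2.73, 1.63 to 4.72) and Oasl2 192 and 276 (39.3 and 66.5 CPM, 1.69, 1.40 to 2.04). Oasl1 did not pass at 670 and 622 UMIs (1.09, 0.978 to 1.22). Of the blocks to entry, replication or release, 0 of 4 measured passed: Rsad2, viperin, had 349 and 282 UMIs (0.951, 0.810 to 1.12) and Bst2 187 and 214 (1.35, 1.10 to 1.65).

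Sensors, transcription factors and other induced proteins filled the rest of the goblet list. Zbp1 had 21.7 and 38.3 CPM (ratio 1.77, 1.37 to 2.28) and Irf7 34.8 and 53.5 (1.54, 1.25 to 1.89). Trim30a had 24 and 66 UMIs (4.92 and 15.9 CPM, 3.24, 2.00 to 5.40), and Parp14, an ADP-ribosyltransferase, 145 and 223 (29.7 and 53.8 CPM, 1.81, 1.46 to 2.25). Rtp4 (2.08, 1.39 to 3.17) and Ifi44 (2.28, 1.21 to 4.46) were higher too, while Stat2, at 122 and 111 UMIs, had a ratio of 1.07 (0.821 to 1.40). The 1 lower member was Gbp2, with 55 and 27 UMIs (0.578, 0.350 to 0.932), and 3 control cells held 29 of its 55 UMIs.

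Goblet cells of the model library also carried more enterocyte transcripts. The 10 enterocyte markers summed to 4467 CPM in control and 11607 CPM in model goblet cells, all 10 higher, which is 8.01% and 18.7% of their level in enterocytes. At those shares enterocyte RNA would bring 8.16 and 21.3 of the 37.9 and 101 CPM of Isg15, a difference of 13.1 against the 62.9 measured. For Ifit1 it would bring 6.06 and 11.4 of the 7.58 and 22.4 CPM, so little of the control level of Ifit1 lies above it. The plasma cell genes Jchain, Igha and Igkc were lower, at 5169 and 2702 CPM. Crypt markers summed to 1233 and 829 CPM, 5 of 10 lower, and fibroblast markers to 60.8 and 4.58 CPM, 6 of 6 lower. The part of these genes in the goblet result was not tested.

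Goblet cells with over 1% of their UMIs from enterocyte markers were then left out, 55 control and 59 model cells, an alternative chosen after seeing the data. The enterocyte markers in the 297 and 279 remaining cells summed to 1948 and 2274 CPM. In these cells 12 members were higher and 0 lower, where 2.19% of all genes were higher, and 9 of the 12 were among those higher in all goblet cells. Isg15 had a ratio of 2.95 (2.43 to 3.60), Oas2 of 2.66 (1.53 to 4.74), Trim30a of 2.32 (1.32 to 4.201) and Rtp4 of 2.27 (1.43 to 3.64). Ifit1 was at 1.83 (1.13 to 2.99), and Irf7, at 1.48 (1.18 to 1.85), was under the limit. Herc6, at 1.43 (0.881 to 2.33), did not pass either, and Usp18 had too few UMIs, 4 and 10. Gbp2, at 0.671 (0.403 to 1.09), was no longer counted as lower. Bst2 (1.53), Ifi27l2a (1.59) and Gbp7 (1.67) passed here alone. The ratio of Isg15 was thus as large without the cells rich in enterocyte RNA, and that of Ifit1 was smaller. At 1000 UMIs per cell 12 members were measured in goblet cells, of which 1 passed, and the median was 0.52.

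**Figure D3:**
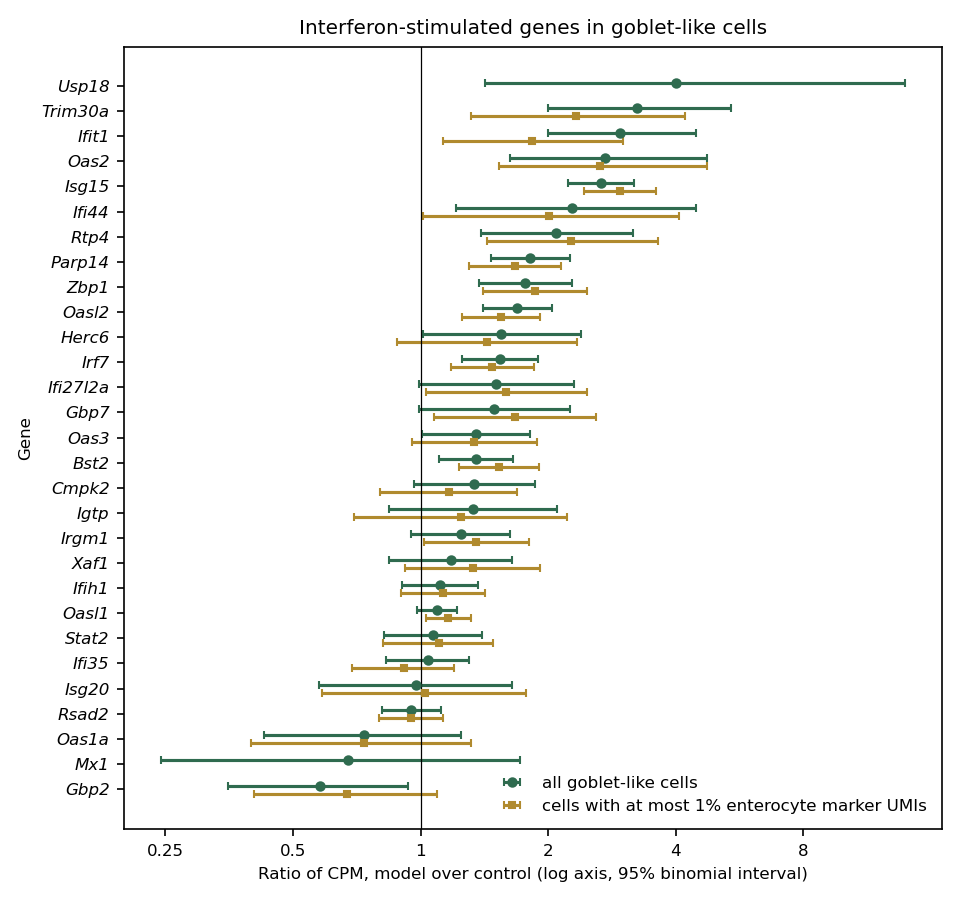
Ratio of CPM, model over control (x axis, log scale, 95% binomial intervals of counting error), of the 29 members with at least 20 UMIs in goblet cells (y axis). Circles are all goblet cells and squares those with at most 1% enterocyte marker UMIs (27 of the 29 members had 20 UMIs there). Isg15 lies at 2.66 and 2.95, and Gbp2 lies lowest at 0.578.

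Enterocytes taken as 1 class gave a mixed result, 6 members higher and 4 lower of 33 measured, where 15.3% of all genes were higher and 9.28% lower, and a median log2 ratio of −0.17. Higher were Bst2 (123 and 340 UMIs, ratio 2.34, 1.896 to 2.896), Ifi27l2a (10 and 31, 2.62, 1.25 to 5.99) and Igtp (303 and 644, 1.797, 1.57 to 2.07). Trim30a (179 and 370, 1.75, 1.46 to 2.101), Oas1a (45 and 90, 1.69, 1.17 to 2.48) and Irgm1 (143 and 283, 1.67, 1.36 to 2.06) were higher as well. Lower were Irf7 (1148 and 786, 0.579, 0.528 to 0.634), Oasl1 (1430 and 1024, 0.605, 0.558 to 0.656), Mx1 (60 and 26, 0.366, 0.222 to 0.590) and Gbp6 (26 and 8, 0.260, 0.102 to 0.592). Within the 3 clusters the ratios of Irf7 were 1.09, 0.910 and 0.921 and those of Oasl1 were 0.964, 1.43 and 1.13. The clusters that make up the class differed between the libraries, however. Cluster 2 held 291 control and 821 model cells, cluster 3 held 1048 and 308, and cluster 4 held 499 and 138. With the 3 clusters weighted equally, an alternative chosen after seeing the data, the median was 0.29. The low-member cluster 2 held more model than control cells, so the members were compared within each cluster.

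Within cluster 2, 8 of 29 measured members were higher and 0 lower, where 2.52% of all genes were higher and 2.94% lower. Isg15 had 215 and 985 UMIs (53.8 and 90.5 CPM, ratio 1.68, 1.45 to 1.96). Ifit1 had 127 and 548 (31.8 and 50.3 CPM, 1.58, 1.30 to 1.94), and the immunity-related GTPase gene Igtp 128 and 578 (1.66, 1.37 to 2.02). Also higher were its relative Irgm1 (1.57), Trim30a (1.68), Bst2 (1.601), Ifit3 (1.63, 1.05 to 2.63) and Oas1a (1.76, 1.00 to 3.31). Parp14, at 107 CPM in both libraries, had a ratio of 1.00 (0.894 to 1.12). Trim30a turned to a log2 ratio of −0.33 at 1000 UMIs per cell, where 0 of 17 measured members were higher, 1 was lower and the median was −0.082.

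Within cluster 3, 6 of 29 were higher and 0 lower, where 5.8% of all genes were higher and 5.37% lower. Isg15 had 573 and 320 UMIs in 1048 and 308 cells (115 and 208 CPM, ratio 1.81, 1.57 to 2.07). Oas2 had 15 and 20 UMIs (3.01 and 13.0 CPM, 4.31, 2.10 to 9.05) and Oas3 108 and 74 (21.7 and 48.0 CPM, 2.22, 1.63 to 3.01). Rsad2 had 16.9 and 38.3 CPM (2.27, 1.5997 to 3.21) and Usp18 12.4 and 24.0 (1.93, 1.25 to 2.95). Bst2 had 8.03 and 16.9 CPM (2.10, 1.23 to 3.53), and turned to a log2 ratio of −0.20 at 1000 UMIs per cell. The sensors and transcription factors gave 0 of 4, with Irf7 at 133 and 121 CPM (0.910, 0.769 to 1.07).

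Within cluster 4, 5 of 23 were higher and 1 lower, where 6.78% of all genes were higher and 8.14% lower. Isg15 again led the counts, with 341 and 186 UMIs (163 and 278 CPM, ratio 1.71, 1.42 to 2.05). Oasl2 had 139 and 214 CPM (1.53, 1.25 to 1.88), Rsad2 22.4 and 41.9 (1.87, 1.12 to 3.04), Bst2 14 and 13 UMIs (2.91, 1.26 to 6.67) and Irgm1 14 and 11 UMIs (2.46, 1.01 to 5.83). Cmpk2, a mitochondrial nucleotide kinase next to Rsad2 in the genome, was lower at 54 and 6 UMIs (0.348, 0.122 to 0.808), with 26 of the 54 in 3 cells. Oasl2 turned to a log2 ratio of −0.54 at a mitochondrial limit of 10%, and Irgm1 to −0.76 at 1000 UMIs per cell.

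Genes of the far and the near small intestine differed in the same clusters, and the labels do not give the stretch of gut. In cluster 3, 5 of 8 measured genes of the distal list were lower and 4 of 8 of the proximal list higher. Of all genes there, 5.37% were lower and 5.8% higher. In cluster 4 it was 3 of 7 (1 was higher) and 4 of 6, where 8.14% of all genes were lower and 6.78% higher. In cluster 2 it was 1 of 6 and 1 of 10, where 2.94% of all genes were lower and 2.52% higher. In goblet cells 5 of 9 proximal genes were higher and 1 lower, and 3 of 7 distal genes were higher and 2 lower. Of all genes in goblet cells, 5.07% were higher and 5.46% lower. In crypt cells 3 of 7 distal genes were lower and 0 higher, and 2 of 9 proximal genes were higher and 1 lower. Of all crypt genes, 1.74% were higher and 3.62% lower. In cluster 12, 3 of 7 distal genes were lower and 1 higher, and 4 of 9 proximal genes were higher and 1 lower. Of all genes in cluster 12, 2.19% were higher and 4.27% lower. The part of these regional genes in the enterocyte, goblet, crypt and cluster 12 results was not tested.

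**Figure D4:**
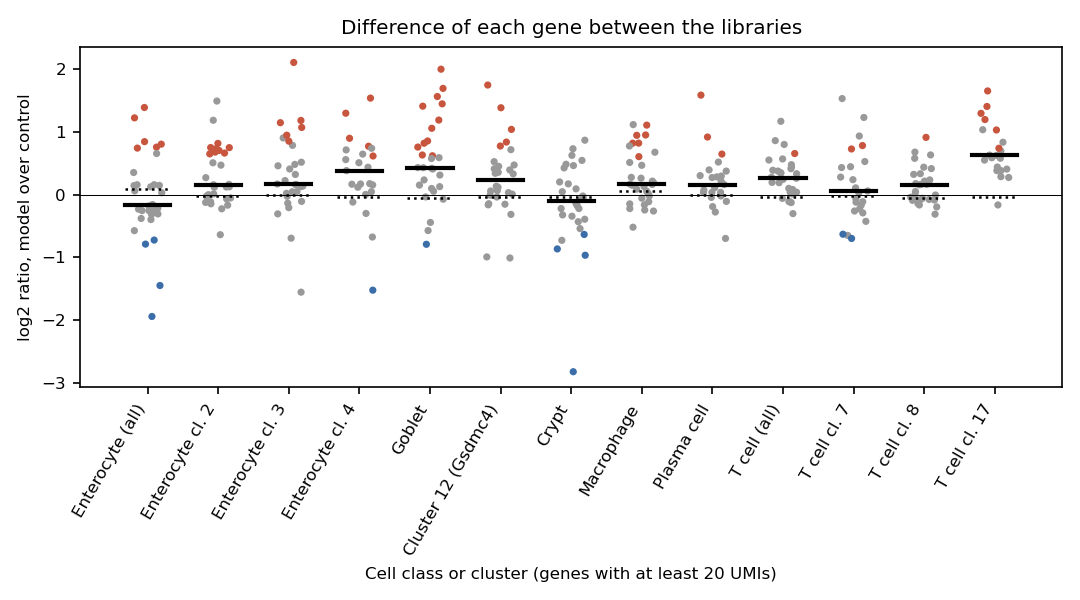
Log2 ratio, model over control (y axis), of each member with at least 20 UMIs (points) in 13 classes or clusters (x axis). Red points were at least 1.5-fold higher and blue points at least 1.5-fold lower with an interval excluding 1. Solid bars are the median of the members and dotted bars that of all genes. Goblet cells have 12 red points, enterocyte clusters 2, 3 and 4 have 8, 6 and 5, and crypt cells have 4 blue points.

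In crypt cells, of 28 measured members, 0 were higher and 4 lower in the model library, where 1.74% of all genes were higher and 3.62% lower. The median log2 ratio was −0.11 (−0.34 to 0.17) over the members and −0.033 over all genes, and 11 of the 28 ratios were above 1. Ifit1 had 34 and 22 UMIs in 675 and 896 cells (ratio 0.512, 0.285 to 0.901), and Isg20 70 and 57 (0.644, 0.446 to 0.927). Gbp2 had 56 and 10 UMIs (0.141, 0.0643 to 0.279), but 3 control cells held 53 of the 56. Gbp7 had 98 and 68 (0.549, 0.397 to 0.755), with 60 of the 98 in 3 control cells. Without the 3 highest cells of each library the log2 ratios turned to 0.88 for Gbp2 and 0.25 for Gbp7, so these values come from a few cells. Enterocyte markers summed to 1143 and 1348 CPM in crypt cells, 2 of 10 higher and 1 lower, against 55803 and 62164 CPM in enterocytes. How much of the crypt Ifit1 (2.53 and 1.29 CPM, against 75.7 and 60.9 in enterocytes) was enterocyte RNA was not tested.

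In the unnamed cluster 12, 5 of 28 members were higher and 0 lower, where 2.19% of all genes were higher and 4.27% lower. Igtp had 30 and 130 UMIs (4.18 and 10.9 CPM, ratio 2.61, 1.75 to 4.03), Isg15 59 and 175 (1.79, 1.32 to 2.45) and Gbp7 17 and 58 (2.06, 1.18 to 3.77). Oas3 had 7 and 39 (3.36, 1.49 to 8.90) and Rtp4 31 and 88 (1.71, 1.13 to 2.67). The median turned from 0.23 to −0.15 at 1000 UMIs per cell, over 5 measured members, and Oas3 turned to −0.32. Jchain, Igha and Igkc summed to 1274 and 3376 CPM in cluster 12, 3 of 3 higher, and their part in its result was not tested. In the unnamed cluster 10, 0 of 8 measured members were higher and 2 lower, Parp14 (37 and 23 UMIs) and Gbp4 (18 and 7). The median log2 ratio there was −0.095, against 0.090 over all genes. The summed members had a ratio of 0.663 (0.545 to 0.807). In cluster 11, 1 of 13 was higher and 0 lower, Bst2 with 7 and 53 UMIs. Its median was 0.050, against 0.079 over all genes, and the ratio of the sum was 1.14 (0.965 to 1.34). The share of all genes past the limit is not given for clusters 10 and 11, so their calls stand without a background. T cell markers in cluster 10 summed to 3617 and 2155 CPM, 7 of 9 lower. In cluster 11 enteroendocrine markers summed to 171 and 1683 CPM, 8 of 8 higher. Goblet markers were higher there in 6 of 7 and crypt markers in 6 of 8. The part of these markers in the ratios was not tested.

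Macrophages, which had the highest level of 8 members, had 6 of 31 higher and 0 lower, where 6.42% of all genes were higher and 4.35% lower. Isg15 had 219 and 339 UMIs in 227 and 207 cells (231 and 409 CPM, ratio 1.77, 1.49 to 2.10), and Bst2 212 and 328 (224 and 395 CPM, 1.77, 1.48 to 2.11). Gbp2 had 49 and 83 UMIs (1.93, 1.34 to 2.81), Ifit2 32 and 54 (1.93, 1.22 to 3.08), Igtp 18 and 34 (2.16, 1.18 to 4.06) and Zbp1 57 and 76 (1.52, 1.07 to 2.19). A few model cells weigh here, since 3 of them held 33 of the 54 Ifit2 and 33 of the 83 Gbp2 UMIs. Rsad2 and Ifi27l2a were among the members that did not pass, at ratios of 0.925 (0.714 to 1.197) and 0.857 (0.720 to 1.02). Plasma cell markers summed to 16287 CPM in control and 2625 in model macrophages, and neutrophil markers to 611 and 374 CPM, 3 of 5 lower. T cell markers were higher in 4 of 9 and genes of the dissociation stress list lower in 2 of 8, and the part of all these in the ratios was not tested.

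T cells as a class had 1 of 31 higher and 0 lower, where 1.38% of all genes were higher and 3.66% lower, with a median of 0.26. The 1 member was Igtp, with 163 and 424 UMIs (38.0 and 59.9 CPM, ratio 1.58, 1.31 to 1.90). Isg15 had 259 and 545 UMIs (60.4 and 76.9 CPM, 1.27, 1.10 to 1.48). The difference was greatest in cluster 17, led by Gm2682, Cd40lg, Ifng, Cd5 and Icos.

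In that cluster, 129 control and 340 model cells, 6 of 21 measured members were higher and 0 lower, where 2.79% of all genes were higher and 4.47% lower. The median log2 ratio was 0.63, and 20 of the 21 members had a ratio above 1. Isg15 had 26 and 138 UMIs (63.8 and 157 CPM, ratio 2.46, 1.61 to 3.89), Trim30a 23 and 114 (2.29, 1.46 to 3.76) and Isg20 11 and 63 (2.65, 1.39 to 5.58). Bst2 (2.04, 1.30 to 3.33), Zbp1 (1.67, 1.04 to 2.78) and Rtp4 (3.15, 1.22 to 10.3) were higher too. In cluster 7 the median was 0.059, with 2 higher and 2 lower of 25, where 1.58% of all genes were higher and 3.15% lower. Igtp (1.72, 1.25 to 2.41) and Zbp1 (1.66, 1.12 to 2.51) were higher there, and Ifih1 (0.616, 0.398 to 0.960) and Stat2 (0.646, 0.472 to 0.887) lower. In cluster 8 the median was 0.16, with 1 higher and 0 lower of 27, where 1.59% of all genes were higher and 3.43% lower. That member was Ifih1 (1.88, 1.14 to 3.1998), so it passed in opposite directions in the 2 clusters, and whether the clusters differ was not tested. In cluster 17 the plasma cell genes Igha and Igkc were higher too, and Jchain, Igha and Igkc summed to 2783 and 6302 CPM. Of the dissociation stress list 3 of 8 genes were lower in cluster 17, and the part of both in its result was not tested.

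Plasma cells had 3 of 23 higher and 0 lower, where 3.37% of all genes were higher and 3.47% lower. Igtp had 58 and 146 UMIs (13.5 and 25.6 CPM, ratio 1.89, 1.39 to 2.61), Gbp4 47 and 98 (1.57, 1.10 to 2.27) and Rsad2 11 and 44 (3.005, 1.53 to 6.45). Of the model UMIs 3 cells held 23 of the 44 for Rsad2 and 32 of the 98 for Gbp4. Bst2, at 1638 and 2294 UMIs, had a ratio of 1.05 (0.987 to 1.12), and Isg20 of 1.03 (0.888 to 1.19). T cell markers were higher in 4 of 10 and genes of the dissociation stress list lower in 3 of 8 in plasma cells, and their part in the result was not tested.

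The members were also counted gene by gene over 9 of the classes or clusters compared. The 9 were crypt, cluster 12, 3 enterocyte clusters, goblet, macrophage, T and plasma cells, so clusters 10 and 11 were left out. Isg15 was higher in 6 of the 9 and had a ratio above 1 in 8. Igtp was higher in 5 and Bst2 in 4, and Bst2 and Trim30a had a ratio above 1 in all 9. Rsad2 was higher in 3. Mx1, an antiviral GTPase, went the other way, with a ratio above 1 in 1 of the 6 where it was measured and no call. The GTPases Gbp2 and Gbp7 had calls in both directions. In all 9 the same 2 libraries were compared, so these counts are not independent.

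The count of members seen per cell shows how the members were spread over cells. Each cell was thinned to 1000 UMIs, and shallower cells were left out (35 control and 8 model goblet cells, 33 and 35 macrophages, 33 and 86 T cells). In goblet cells 6.94% of control (22 of 317 cells, exact binomial interval 4.40 to 10.3) and 14.5% of model cells (48 of 330, 10.9 to 18.8) had 3 or more members. The ratio of these shares was 2.096 (1.24 to 3.65). At 2000 UMIs the shares were 21.2% and 26.8%, a log2 ratio of 0.33 against 1.07 at 1000 UMIs. Unthinned, the shares were 65.9% and 75.7%, which also carry depth. Crypt cells, at the same depth, stood at 0.149% (0.00377 to 0.826) and 0.578% (0.188 to 1.34). The highest count in a goblet cell was 5 members (control) and 10 (model).

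Macrophages had 28.9% (22.6 to 35.8) and 40.1% (32.7 to 47.9) of cells with 3 or more members, and unthinned 69.2% and 69.6%. The ratio, 1.39 (0.963 to 2.01), included 1. The cell with most members of all was a control macrophage with 20 of the 35. T cells had 6.83% (5.45 to 8.43) and 9.82% (8.63 to 11.1), a ratio of 1.44 (1.11 to 1.88), and unthinned 47.4% and 43.9%, so the order of the T cell shares depends on the thinning. In T cell cluster 17 the shares were 9.84% (5.19 to 16.6) and 22.8% (18.2 to 27.8), and unthinned 49.6% and 55.3%.

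Enterocyte cluster 2 had 7.29% (4.57 to 10.9) and 6.77% (5.14 to 8.71), cluster 3 had 13.99% (11.9 to 16.3) and 17.9% (13.7 to 22.8), and cluster 4 had 15.3% (12.2 to 18.8) and 21.7% (15.2 to 29.6). Unthinned they were 83.2% and 81.4%, 64.4% and 76.0%, and 66.7% and 85.5%. At 1000 UMIs the shares in clusters 3 and 4 thus lay above those in cluster 2, whereas in the unthinned control cells cluster 2 had the highest share and in the unthinned model cells cluster 4 did. At 1000 UMIs the ratio of model to control included 1 in each of the 3.

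**Figure D5:**
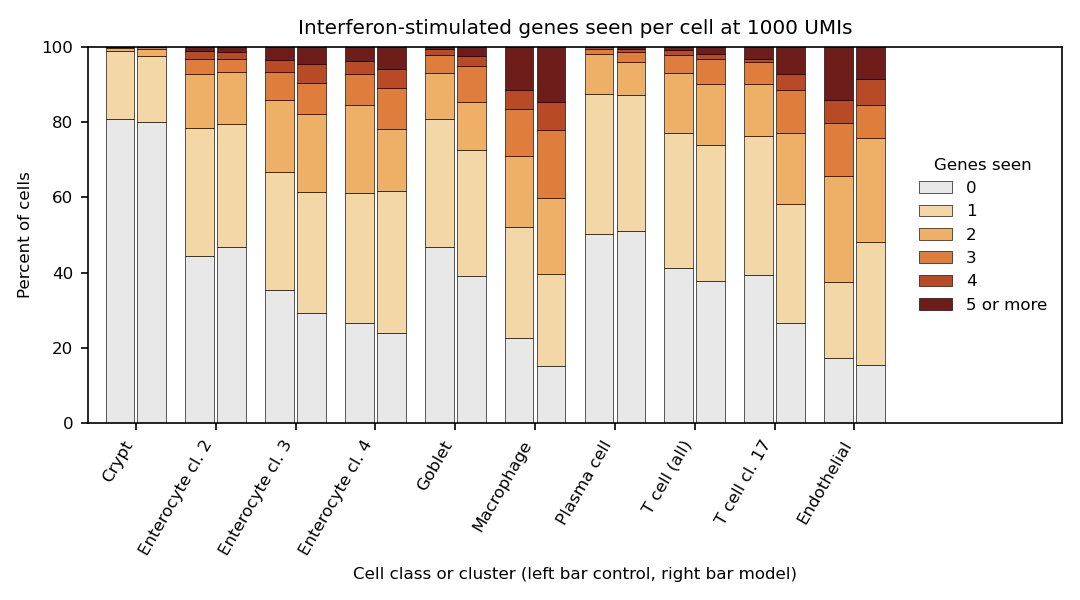
Percent of cells (y axis) by number of members seen at 1000 UMIs per cell (colour, 0 to 5 or more), in 10 classes or clusters (x axis), control on the left and model on the right of each pair. Crypt cells mostly show 0 members, macrophages reach 3 or more in 28.9% and 40.1% of cells, and goblet cells do in 6.94% and 14.5%.

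The upstream genes of the pathway were then read from lists of other interferon genes. Of 20 interferon ligand genes, Ifng alone reached 20 UMIs in a compared class. T cells had 383 and 716 Ifng UMIs (89.3 and 101 CPM, ratio 1.13, 0.999 to 1.29), of which cluster 17 held 307 and 588 (753 and 668 CPM, 0.886, 0.771 to 1.02). The cluster in which the members differed most among T cells was thus also the main source of Ifng, at a level that did not pass in either direction. In T cell cluster 8 Ifng was higher, with 42 and 98 UMIs (1.74, 1.203 to 2.57). It was also higher in the unnamed cluster 10, low in RNA and with T cell markers, at 8.87 and 53.2 CPM (log2 ratio 2.58). The type I and type III ligand genes stayed under 20 UMIs in every compared class, so a difference in them was not detectable at this depth.

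The receptor and signalling genes showed few differences. Of 6 receptor genes 1 was higher in enterocyte cluster 2 and 1 in cluster 3, where 2.52% and 5.8% of all genes were higher. In both cases it was Ifnar2, a chain of the type I receptor, with ratios of 1.58 (1.18 to 2.15) and 2.76 (1.78 to 4.28). Ifnlr1, the chain particular to type III receptors, was lower in crypt cells with 46 and 36 UMIs (0.619, 0.389 to 0.979). Irf9 was higher in enterocyte clusters 3 and 4 at 1.55 (1.15 to 2.07) and 1.53 (1.01 to 2.28), where 5.8% and 6.78% of all genes were higher. In cluster 4 Socs1, an inhibitor of the pathway, and Irf3 were lower at 0.268 (0.0528 to 0.851) and 0.505 (0.231 to 0.992), where 8.14% were. In macrophages Irf1 was higher at 1.67 (1.32 to 2.12) and Socs3 lower at 0.633 (0.535 to 0.748), and in enterocyte cluster 2 Socs3 was higher at 1.81 (1.39 to 2.395). Goblet cells had 0 of 6 receptor and 0 of 12 signalling genes past the limit, where 5.07% of all genes were higher and 5.46% lower. The lists are too short to set 0 apart from these shares.

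Beyond the 35, a list of 41 other interferon-stimulated genes gave 5 higher and 0 lower of 27 measured in goblet cells, where 5.07% and 5.46% of all genes were, with a median of 0.24. Cxcl10, a chemokine that draws T cells, had 16 and 30 UMIs there (ratio 2.21, 1.17 to 4.33), and Sp100 91 and 137 (1.77, 1.35 to 2.34). Of the nucleic acid sensors 2 of 10 were higher in goblet cells, Dhx58 with 13 and 34 UMIs (3.08, 1.58 to 6.36) and Ddx58, which encodes RIG-I, with 70 and 95 (1.597, 1.16 to 2.21). In crypt cells the same list of 41 gave 1 higher and 6 lower of 32, where 1.74% and 3.62% of all genes were, the lower ones including Cxcl9 with 192 and 14 UMIs (0.0577, 0.0309 to 0.0992) and Cxcl10 with 238 and 103 (0.342, 0.269 to 0.433). In enterocyte cluster 2 it gave 0 of 27 in either direction, where 2.52% of all genes were higher and 2.94% lower. In cluster 3 it gave 2 higher and 5 lower of 25, where 5.8% of all genes were higher and 5.37% lower. The calls among the 35 members in cluster 3 were all higher, so the wider list did not share that direction.

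Free RNA from burst cells could lend members to classes that lack them, and its size was estimated from epithelial and plasma cell genes in foreign classes. For goblet and crypt cells the plasma cell genes alone were used, and for macrophages and plasma cells the epithelial genes alone. For both goblet and crypt cells the estimate therefore leaves out the enterocyte RNA described above. In goblet cells 27 of 29 measured members lay at least 2 times over that estimate in both libraries, and in macrophages 31 of 31. In crypt cells it was 23 of 28 and in plasma cells 21 of 23. Ifit3 and Ifit3b are near-identical copies, and their promoter stretches with the ISRE letters are the same, so the split of reads between them is uncertain. The Oas and Gbp families also hold close copies.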

How the data were processed

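What the authors deposited are raw UMI counts, whole numbers for each gene in each barcode. Software version 7.0.1 of Cell Ranger stands in the file headers. The submitters' processing notes list version 4.0 with the build GRCm39. For the annotation the source is not given in the sources used. The libraries held 10259 control and 11468 model barcodes with 61370270 and 76701215 UMIs. Cells needed 500 UMIs, 200 genes and a mitochondrial share of 25% or less. Scrublet called 0 doublets in either library, so it did not work, and none were removed. Cells were clustered in scanpy 1.11.5 (2000 variable genes, 30 components, 15 neighbours, Leiden resolution 1), with the members and related interferon genes left out of the variable genes. 9 members would otherwise have been among these. A class name needed at least 3 markers at 2-fold in 10% of cells. UMIs were summed per class. CPM carry exact Poisson intervals, ratios exact binomial intervals and shares Clopper-Pearson intervals. Comparison needed 100 cells of a class in each library, and description 20. The script was tested on simulated data. The members and lists were chosen with earlier results of these data known, and every member could be named. Members past the limit of 1.5-fold are given with their ratios. Alternatives are under the closing section. Results for some genes are not reported here.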

Additional observations from a re-analysis of the deposited data

Results flagged for a closer look

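Some members passed the 1.5-fold limit in opposite directions in different classes, and none of these differences between classes was tested. Ifit1 was higher in goblet cells (ratio 2.96) and in enterocyte cluster 2 (1.58) of the model library but lower in crypt cells (0.512). The crypt value rests on 34 and 22 UMIs, and the part of enterocyte RNA in it was not tested. The log2 ratios differed by 2.53 between goblet and crypt cells and by 1.63 between enterocyte cluster 2 and crypt cells. Gbp2 was higher in macrophages (1.93) and lower in crypt cells (0.141) and goblet cells (0.578), which gives differences of 3.78 and 1.74. Of its control UMIs in crypt cells 53 of 56 sat in 3 cells. Gbp7 was higher in cluster 12 (2.06) and lower in crypt cells (0.549), a difference of 1.91, and it too rests on 3 crypt cells.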

How the results depend on the processing

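The median log2 ratio of the members in goblet cells stayed above 0 in 12 of 12 alternatives (0.34 to 0.59), in plasma cells in 12 of 12 (0.07 to 0.28) and in enterocyte cluster 3 in 9 of 9 (0.05 to 0.34). In crypt cells it was −0.20 to 0.06, below 0 in 10 of 12. Other medians moved or changed sign under some alternatives. At 1000 UMIs per cell the median was −0.082 in enterocyte cluster 2, 0.044 in cluster 4, −0.15 in cluster 12 and 0.53 in macrophages. It was 0.070 in cluster 4 without the 3 cells with most UMIs of each gene, 0.014 in macrophages as a mean of each cell's CPM, and 0.059 in T cells with cluster 7 alone. The enterocyte median of −0.17 became 0.41 at a mitochondrial limit of 10%, 0.17 in cluster 3 alone and 0.29 with clusters weighted equally, an alternative added after seeing the data. The cause was not tested.

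Single members reversed in the log2 ratio as follows. At 1000 UMIs they were Herc6 in goblet cells (−0.058), Ifi27l2a in enterocytes (−0.060), Gbp7 in crypt cells (1.64), Trim30a in cluster 2 (−0.33), Bst2 in cluster 3 (−0.20), Irgm1 in cluster 4 (−0.76) and Oas3 in cluster 12 (−0.32). At a mitochondrial limit of 10% they were Irf7 (0.11) and Gbp6 (0.92) in enterocytes and Oasl2 in cluster 4 (−0.54). Without the 3 highest cells they were Gbp2 (0.88) and Gbp7 (0.25) in crypt cells. Oasl1 in enterocytes was at 0.52 in cluster 3 alone and 0.23 with clusters weighted equally.

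The log2 ratio of the share of cells with 3 or more members moved at 500 UMIs to 0.93 in T cells, 0.83 in enterocyte cluster 2, 0.84 in cluster 3 and −0.40 in plasma cells, and at 2000 UMIs to −0.27 in plasma cells. In plasma cells it was 1.10 (−0.035 to 2.38) at 1000 UMIs, so both turned its sign. No paired analysis was possible because each group holds 1 library.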
